A study of Mus musculus with 4 samples.

Results

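The genes described here encode the mitochondrial ribosomal proteins, the protein parts of the ribosome that works inside mitochondria. They were taken from the deposited expression table by symbol: every row whose single gene symbol was Mrpl or Mrps followed by a number and at most 1 letter. This gave 72 genes of 47935 loci, 47 with an Mrpl symbol (large subunit) and 25 with an Mrps symbol (small subunit). All 72 reached the level needed for testing, and each matched 1 protein-coding gene of GENCODE M21 on GRCm38. The rule did not use expression values. Rows in which an Mrpl or Mrps gene shared a locus with another gene were left out. There were 5 of them, for Mrpl53, Mrps6, Mrps18c, Mrps24 and Mrps34.

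The mitochondrial ribosome translates the few proteins that mitochondrial DNA still encodes, all of them subunits of the respiratory chain and ATP synthase. Its RNAs are made inside the organelle, but every one of its proteins is encoded in the nucleus, made in the cytosol and imported. Some of these proteins descend from bacterial ribosomal proteins and others are particular to mitochondria. In red cell precursors mitochondria carry out steps of heme synthesis and are removed at the end of maturation.

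RNA-seq was made from MEL cells, a mouse erythroleukemia line held at an early red cell stage, which takes up erythroid-like differentiation under dimethyl sulfoxide (DMSO). DMSO-induced cells received 1.5% DMSO in the same complete medium in which uninduced cells were kept, with replicates 1 and 2 in each group. The genotype of the line, the length of exposure and whether replicates were separate cultures are not stated in the labels, so the p-values speak only for the spread among these 4 samples, part or all of which may be technical. Levels were read as FPKM, a unit inferred from the layout and sums of the table. FPKM divides fragments by transcript length and by the library's total, so genes can be compared with each other. Such comparison is only rough here, since the quantifier and annotation release were not given. In bulk RNA, fewer cells with a transcript and less of it per cell cannot be told apart.

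Summed FPKM was 1246536 and 1100517 in the induced and 1055861 and 1325806 in the uninduced samples. Depth was not stated. Judged by the smallest FPKM steps among short genes with 1 exon, it was estimated at 0.68 and 0.76 for induced replicates 1 and 2 and 0.94 for uninduced replicate 1, relative to uninduced replicate 2. The 7 erythroid markers examined lay between 12.4 and 3339 FPKM in every sample, whereas 14 markers of lymphoid, myeloid, stromal and epithelial cells did not exceed 1.47 FPKM in any.

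Most mitochondrial ribosomal protein genes were lower in DMSO-induced than in uninduced cells. Of the 72, 33 fell, none rose and 39 did not pass, by limma on log2(FPKM + 1) with Benjamini-Hochberg adjustment over all 12890 loci tested and a threshold of 0.05. Over all loci tested, 14.7% were called lower and 11.5% higher. At an unadjusted limma p under 0.05, 43 of the genes were lower and 2 higher. The log2 fold change was below 0 for 65 of the 72, and for 48.8% of all loci. Its median was -0.76 over the 72 genes, beside 0.03 over all loci. Both induced values lay under both uninduced values for 59 genes and above them for 3, where over all loci tested 34.7% lay under and 36.1% above.

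The decrease was not uniform. Log2 fold changes ran from -2.19 for Mrps28 to 0.75 for Mrps36. Differences between replicates had a median size of 0.15 on the log2 scale for these genes in either group. They were larger in single genes, replicate 2 minus replicate 1 being -0.98 for Mrpl47 in induced and -0.94 for Mrpl18 in uninduced samples. Across the 72 genes the log2 fold change had little relation to the uninduced level (Pearson r = 0.04, Spearman rho = -0.07), to transcript length (-0.05 and -0.08) or to GC content (-0.20 and -0.21). These are descriptions across genes measured in the same 4 libraries.

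**Figure D1:**
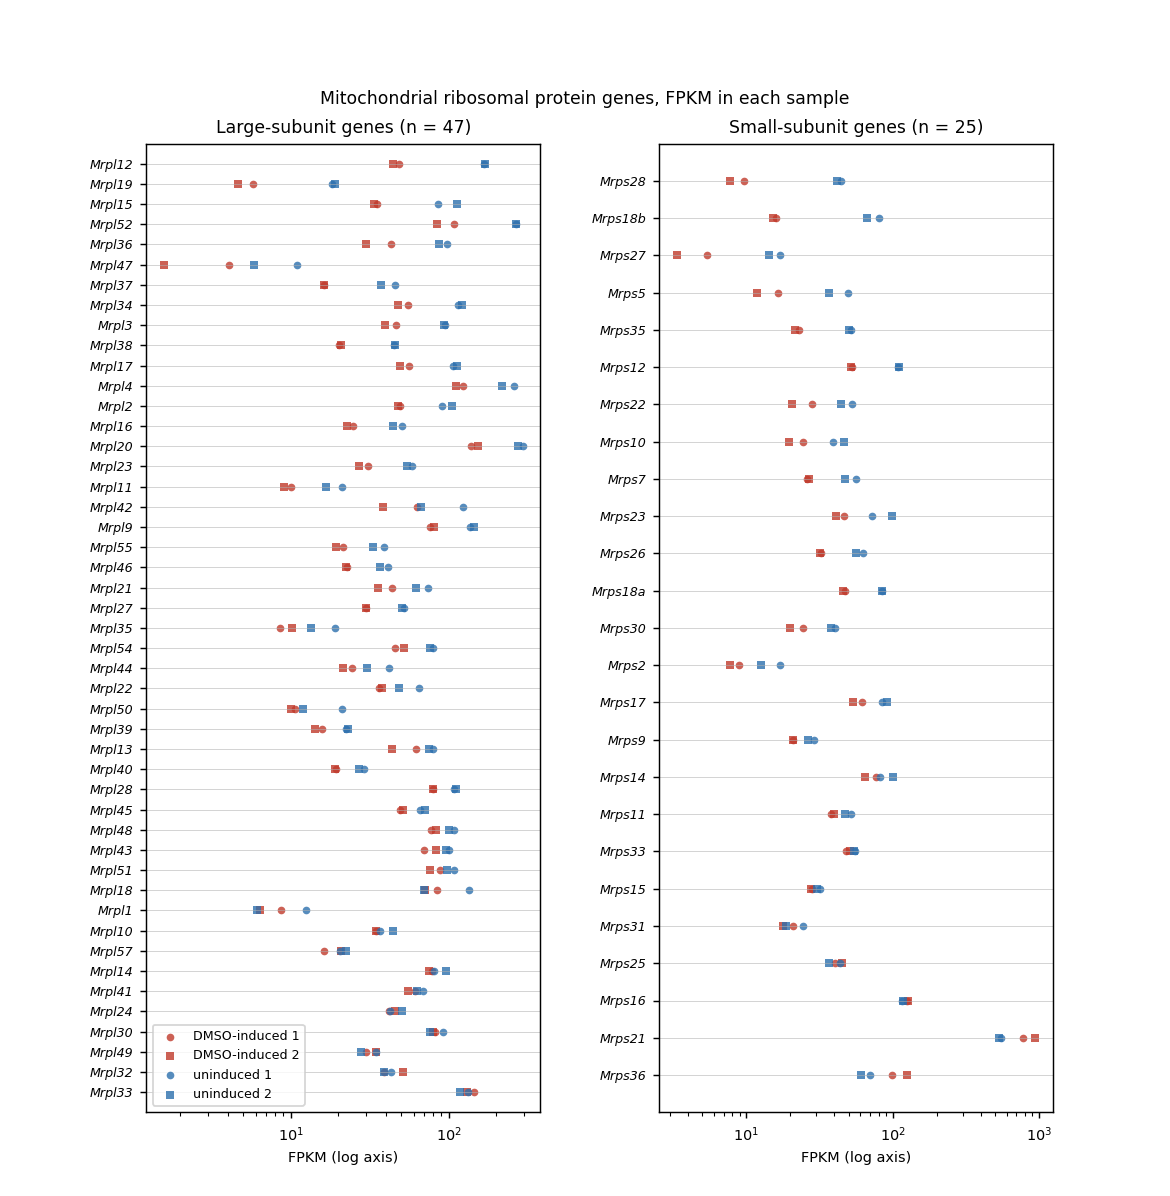
FPKM of each of the 47 large-subunit (left) and 25 small-subunit genes (right) on a log axis, ordered by log2 fold change; red points are the 2 DMSO-induced samples and blue points the 2 uninduced samples. In the upper rows the red points stand clear to the left of the blue ones, and towards the bottom the colours mix, with Mrps21 and Mrps36 the other way round.

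The number of calls rested on all 4 libraries. Without induced replicate 1, limma called 3 of the 72 lower (Mrps28, Mrps18b and Mrpl12), beside 2.37% of all loci. Without induced replicate 2, uninduced replicate 1 or uninduced replicate 2 it called 0 of the 72, beside 0.411%, 0.233% and 0.109% of all loci called lower. With a sample left out none of the 72 was called higher, beside at most 1.4% of all loci (0.109% without induced replicate 2). The direction moved little, since 61 to 68 of the 72 log2 fold changes were below 0 in these fits and 28 to 43 were lower at an unadjusted p under 0.05. With loci of low level kept in the fit, 0 of the 72 were called (45 lower and 2 higher at an unadjusted p under 0.05), beside 0.0874% of loci lower and 0.0266% higher. Scaling to sums that leave out globins and the 10 most abundant loci gave 18 lower, beside 11.8% of loci lower and 11.9% higher. Quantile scaling gave 24 lower and 2 higher, beside 13.1% and 14.1% of loci, and a fit of protein-coding loci only gave 38 lower and 1 higher, beside 18.1% and 17.6%.

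Of the 47 large-subunit genes, 20 fell and 27 did not pass, beside 14.7% of all loci called lower. The median over the 47 was -0.72 on the log2 scale. Mrpl12 fell furthest. It encodes the protein of the flexible ribosomal stalk, which recruits translation factors, and it has also been described as a partner of the mitochondrial RNA polymerase. The gene lies on chromosome 11, 120484613 to 120489065 (GRCm38), and measured 48.7 and 44.6 FPKM in induced samples, against 166 and 170.9 FPKM in uninduced samples. Both induced values were far below both uninduced ones, and replicates lay close together. The ratio of mean FPKM was 0.277 and the log2 fold change -1.83 ± 0.18 (SE; limma adjusted p = 0.0113). An antisense gene, Gm16755, shares 200 exonic bases with it.

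The other stalk proteins moved less. Mrpl11, at the stalk base, measured 10.1 and 9.11 FPKM in induced and 21.2 and 16.7 FPKM in uninduced samples, without overlap, and fell by 0.90 ± 0.22 on the log2 scale (limma adjusted p = 0.0396), a call lost when globins and the 10 most abundant loci were left out of the scaling sums (-0.81, limma adjusted p = 0.0781). Mrpl10, which holds the Mrpl12 copies on the ribosome, measured 34.7 and 34.8 FPKM in induced and 36.9 and 44.1 FPKM in uninduced samples. That difference, -0.21 ± 0.19, was about as large as its error and did not pass (limma adjusted p = 0.445). Gm11574 shares 240 exonic bases with Mrpl10 on the opposite strand.

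Mrpl19, a protein of the bacterial L19 family (chromosome 6, 81957851 to 81965958), had 5.73 and 4.62 FPKM in induced and 18.1 and 19.1 FPKM in uninduced samples. Mrpl15, of the L15 family (chromosome 1, 4773206 to 4785739), had 35.1 and 33.5 FPKM in induced and 85.1 and 114 FPKM in uninduced samples. Neither gene's groups overlapped, and the log2 fold changes were -1.67 ± 0.21 and -1.49 ± 0.22 (limma adjusted p = 0.0134 and 0.0165). Mrpl19 shares 1962 exonic bases with Gcfc2 on the opposite strand, and since the strandedness of the libraries was not given, reads there cannot be told apart.

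Mrpl52, a subunit with no bacterial counterpart (chromosome 14, 54426909 to 54429756), measured 107 and 84.1 FPKM in induced and 266 and 267 FPKM in uninduced samples. Mrpl36, a small protein of the L36 family (chromosome 13, 73328513 to 73332178), measured 43.3 and 30.1 FPKM in induced and 98.1 and 86.8 FPKM in uninduced samples. For both, the lower induced value came from replicate 2, and the groups stood apart. Their log2 fold changes were -1.48 ± 0.21 and -1.33 ± 0.24 (limma adjusted p = 0.0161 and 0.0226).

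Mrpl20, of the L20 family, was the most abundant large-subunit transcript, with 138 and 154 FPKM in induced and 294 and 273 FPKM in uninduced samples. It fell by 0.95 ± 0.20 on the log2 scale (limma adjusted p = 0.0287). At the other end, Mrpl47, of the L29 family at the exit of the peptide tunnel, was the least abundant, with 4.09 and 1.58 FPKM in induced and 11.0 and 5.87 FPKM in uninduced samples. Its replicates differed within each group, and its log2 fold change of -1.32 did not pass (SE 0.44, limma adjusted p = 0.0839). It was -0.83 without induced replicate 2 and -1.81 without induced replicate 1. Among protein-coding loci only it did pass (limma adjusted p = 0.0295). Exons of Ndufb5 and Actl6a overlap it on the opposite strand, by 616 bases at most.

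Of 6 genes for proteins around the tunnel exit, 2 fell, Mrpl17 and Mrpl23, beside 14.7% of all loci called lower. The median over the 6 was -0.76. Mrpl45, which anchors the ribosome to the inner mitochondrial membrane, measured 49.3 and 51.6 FPKM in induced and 65.6 and 70.4 FPKM in uninduced samples. Its groups did not overlap, yet the difference of -0.42 ± 0.18 did not pass (limma adjusted p = 0.137). Large-subunit genes with the smallest differences were Mrpl49, specific to mitochondria, and Mrpl30, of the L30 family. Mrpl49 measured 30.0 and 34.4 FPKM in induced and 34.7 and 27.9 FPKM in uninduced samples, and Mrpl30 measured 81.5 and 79.7 FPKM in induced and 92.3 and 76.2 FPKM in uninduced samples. Induced and uninduced values of both genes overlapped (0.05 ± 0.21 and -0.06 ± 0.20), and the sign of the difference turned with the scaling.

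**Figure D2:**
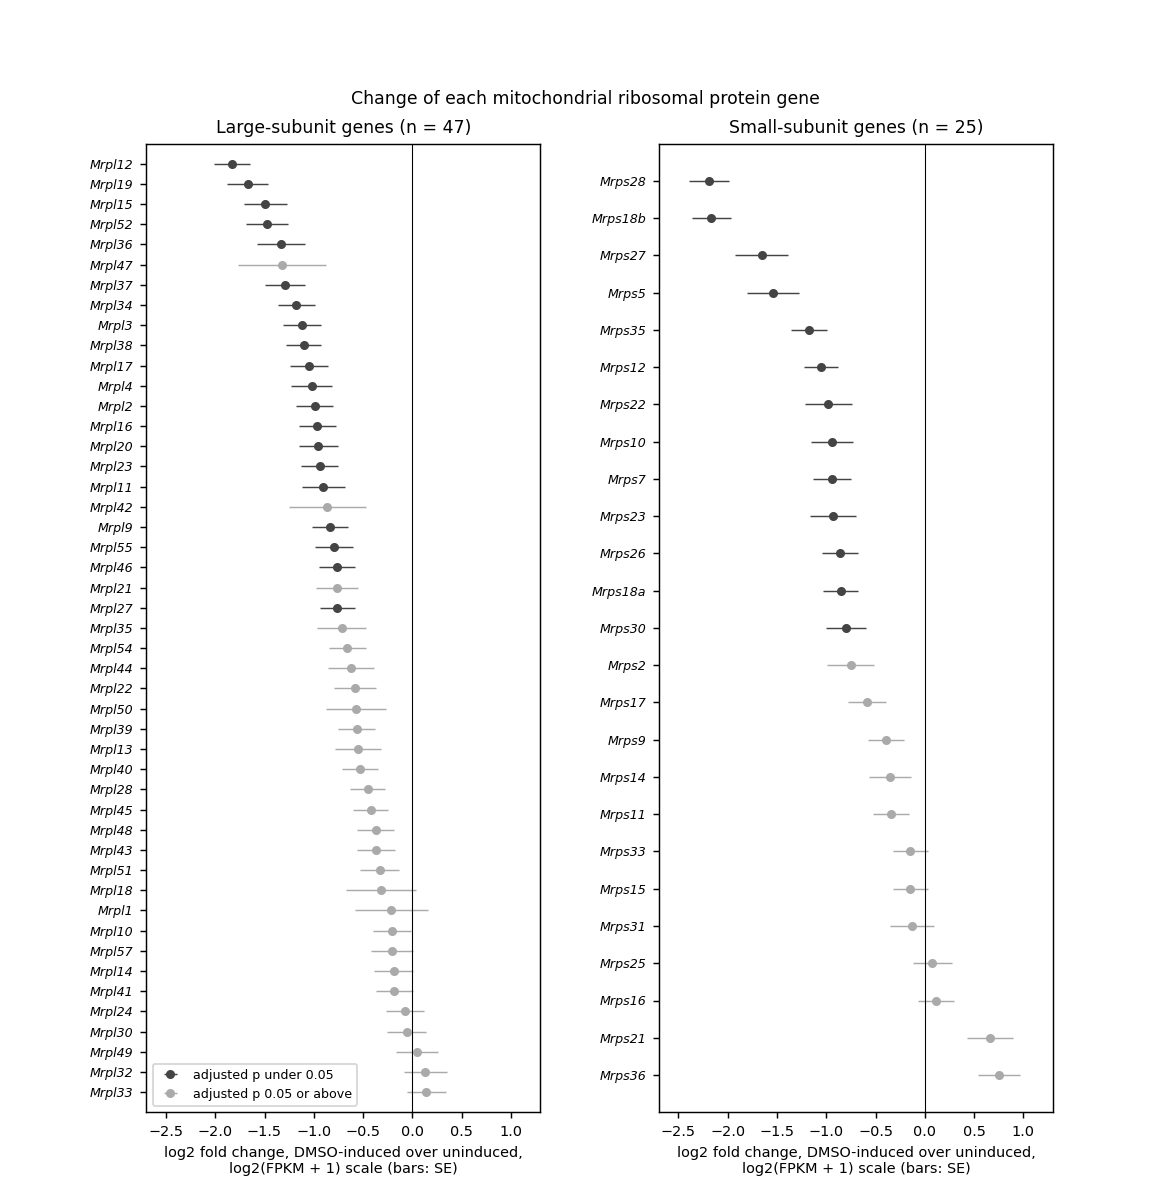
Log2 fold change (DMSO-induced over uninduced, log2(FPKM + 1) scale) of each large-subunit (left) and small-subunit gene (right), with bars for limma's SE; dark points passed an adjusted p of 0.05. The 33 dark points all lie below 0, and the 2 highest points, Mrps21 and Mrps36, are grey.

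Of the 25 small-subunit genes, 13 fell and 12 did not pass, beside 14.7% of all loci called lower. The median over the 25 was -0.80 on the log2 scale. The largest decreases of all 72 genes were found here. Mrps28, related to the bacterial S1 family (chromosome 3, 8802146 to 8923918), measured 9.60 and 7.72 FPKM in induced and 44.4 and 41.6 FPKM in uninduced samples. Both induced values were far below both uninduced ones (ratio of means 0.201, log2 fold change -2.19 ± 0.20, limma adjusted p = 0.0106). Only 2.93% of all loci tested had a lower log2 fold change. It had neither an exon overlap with another gene nor a near-identical copy.

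Mrps18b (chromosome 17, 35910379 to 35916389) had 16.0 and 15.3 FPKM in induced and 81.0 and 66.8 FPKM in uninduced samples. The groups stood far apart, and it fell by 2.17 ± 0.20 on the log2 scale (limma adjusted p = 0.0105). It is 1 of 3 mammalian genes related to bacterial S18, the others being Mrps18a and Mrps18c. Mrps18a (chromosome 17, 46110986 to 46128910), whose protein sits in the large subunit despite its symbol, had 47.1 and 45.7 FPKM in induced and 84.3 and 85.1 FPKM in uninduced samples. It fell by 0.85 ± 0.18 on the log2 scale (limma adjusted p = 0.0287), but not under quantile scaling (0.0508) or without globins and the 10 most abundant loci in the scaling (0.0540). The row that Mrps18c shared with another transcript measured 62.2 and 48.0 FPKM in induced and 52.1 and 34.2 FPKM in uninduced samples, with overlapping groups. The 3 related genes thus differed widely in their values, and whether the differences between them exceed error was not tested. Mrps18b has a near-identical copy, Gm13552, and shares 638 exonic bases with Gm16279 on the opposite strand.

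Mrps27, an RNA-binding protein with pentatricopeptide repeats (chromosome 13, 99344786 to 99415562), had 5.37 and 3.34 FPKM in induced and 17.0 and 14.3 FPKM in uninduced samples. It was also the least abundant small-subunit transcript. Mrps5, of the S5 family near the path by which mRNA enters (chromosome 2, 127587222 to 127606829), had 16.4 and 11.8 FPKM in induced and 49.4 and 36.7 FPKM in uninduced samples. Replicate 2 was the lower sample in each group for both genes, and the groups did not overlap. They fell by 1.66 ± 0.27 and 1.54 ± 0.26 on the log2 scale (limma adjusted p = 0.0191 and 0.0200). Mrps27 shares 506 exonic bases with 6430562O15Rik on the opposite strand, and Mrps5 has a near-identical copy, Gm13328.

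In the head of the small subunit, 3 of 7 genes fell, Mrps35, Mrps10 and Mrps7, beside 14.7% of all loci called lower. The median over the 7 was -0.40. Mrps35, specific to mitochondria, measured 22.8 and 21.4 FPKM in induced and 52.2 and 50.1 FPKM in uninduced samples (-1.18 ± 0.18, limma adjusted p = 0.0176). Mrps7, of the S7 family, measured 25.9 and 26.9 FPKM in induced and 55.9 and 47.5 FPKM in uninduced samples (-0.94 ± 0.19, limma adjusted p = 0.0278, and 0.0538 without globins and the 10 most abundant loci in the scaling). It shares 127 exonic bases with Gga3 and 119 with Mif4gd, both on the opposite strand. Mrps12, the S12 family protein of the decoding site, measured 53.0 and 51.6 FPKM in induced and 109 and 110 FPKM in uninduced samples (-1.05 ± 0.18, limma adjusted p = 0.0199). In all 3 the induced values lay clear of the uninduced ones, and replicates of Mrps12 differed least.

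Mrps30, which like Mrps18a belongs to the large subunit in mammals, had 24.4 and 19.8 FPKM in induced and 40.5 and 37.6 FPKM in uninduced samples. Its decrease of -0.80 ± 0.20 passed (limma adjusted p = 0.0441), though not under quantile scaling (0.0630) or without globins and the 10 most abundant loci in the scaling (0.0923). B430218F22Rik shares 623 exonic bases with Mrps30 on the opposite strand. Mrps25, specific to mitochondria, measured 40.1 and 44.7 FPKM in induced and 43.9 and 36.7 FPKM in uninduced samples, with overlapping groups and a difference of 0.07 ± 0.20. It shares 4590 exonic bases with Nr2c2 on the opposite strand, and reads there cannot be told apart. Mrps16, of the S16 family, had 125 and 127 FPKM in induced and 115 and 118 FPKM in uninduced samples, with both induced values above both uninduced ones by a margin (0.12 ± 0.18) smaller than its error. This gene has 2 near-identical copies, Gm12244 and Gm9173.

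Mrps21, of the S21 family (chromosome 3, 95862634 to 95871519), was the most abundant of all 72 transcripts and went the other way. It measured 778 and 940 FPKM in induced and 552 and 530 FPKM in uninduced samples. Both induced values were higher, but they differed more from each other than the uninduced ones, and the log2 fold change of 0.66 ± 0.24 did not pass (limma adjusted p = 0.0966). Mrps36 (chromosome 13, 100735955 to 100744659) measured 98.9 and 125 FPKM in induced and 70.1 and 61.1 FPKM in uninduced samples, again without overlap and again short of the threshold (0.75 ± 0.21, limma adjusted p = 0.0581). Later work assigned the Mrps36 protein to the alpha-ketoglutarate dehydrogenase complex of the citric acid cycle and not to the ribosome. Under quantile scaling both were called higher, Mrps21 at a limma adjusted p of 0.0447 and Mrps36 at 0.0245, and Mrps36 was also called among protein-coding loci only (0.0261). Near-identical copies exist for both genes, 1 for Mrps21 and 4 for Mrps36, so their reads may be partly shared.

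The subunits were then set side by side. The difference of their median log2 fold changes, large minus small, was 0.08, less than the SD of 0.12 that it showed over the 4 pairings of an induced with an uninduced sample, which share samples. When Mrps18a and Mrps30 were counted with the large subunit, where their proteins belong, the medians were -0.76 for the large and -0.75 for the small subunit. At this precision no difference between the subunits was resolved.

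Summed levels of the subunits depended on Mrps21. Setting this gene apart was decided after its values were seen. Large-subunit FPKM summed to 2279 and 2159 in induced and 3837 and 3574 in uninduced samples. Small-subunit FPKM summed to 1699 and 1837 in induced and 1917 and 1863 in uninduced samples, so the small-subunit groups lay much closer together. Mrps21 alone made up 45.8% and 51.2% of the small-subunit sum in induced samples and 28.8% and 28.5% in uninduced samples.

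The ratio of large to small sums was 1.34 and 1.18 in induced and 2.001 and 1.92 in uninduced samples. Without Mrps21, but with Mrps36 still counted in the small subunit, it was 2.48 and 2.41 in induced and 2.81 and 2.68 in uninduced samples. Mrps36 itself was higher in induced samples (98.9 and 125 FPKM against 70.1 and 61.1 FPKM), which lowers the ratio there. A ratio without both genes was not calculated. The median level per gene was 43.3 and 38.6 FPKM in induced and 69.0 and 63.1 FPKM in uninduced samples for the large subunit. For the small subunit it was 28.2 and 27.8 FPKM in induced and 53.1 and 47.5 FPKM in uninduced samples, so by this measure both subunits were lower in induced cells. Together the 72 genes took 0.622% and 0.542% of the FPKM of nuclear protein-coding loci in induced samples and 0.934% and 0.752% in uninduced samples. The groups did not overlap in any of these measures.

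**Figure D3:**
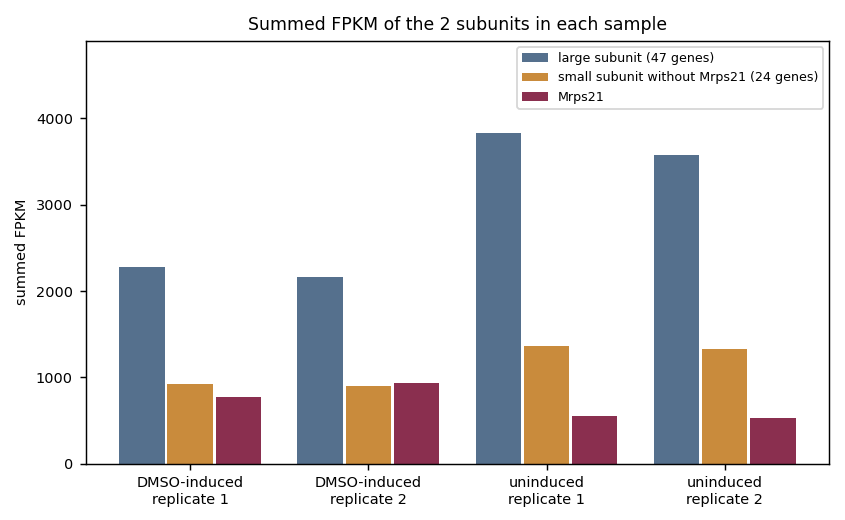
Summed FPKM per sample of the 47 large-subunit genes, the 24 small-subunit genes other than Mrps21, and Mrps21 alone, with DMSO-induced samples on the left. Large-subunit bars are lower in the induced samples (2279 and 2159) than in the uninduced ones (3837 and 3574), whereas the Mrps21 bars are higher.

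Proteins of bacterial descent and proteins specific to mitochondria both included genes that fell. Over all loci tested, 14.7% were called lower. In the large subunit 16 of 30 genes of bacterial families fell (median -0.81) and 4 of 17 specific to mitochondria (median -0.57). In the small subunit the figures were 7 of 15 (median -0.75) and 6 of 9 (median -0.86), with Mrps18a and Mrps30 counted here by symbol. The balance thus ran in opposite directions in the subunits, on small counts, and neither difference was tested.

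Shared reads are a limit for part of the genes. An exon overlap of at least 100 bases with another gene was found for 22 of the 72, and a near-identical copy elsewhere for 17. Of the 36 with neither, 19 fell, none rose and 35 had a log2 fold change below 0 (median -0.82). Over all loci tested, 14.7% were called lower, 11.5% were called higher and 48.8% were below 0. Mrpl46 and Mrps11 lie head to head on chromosome 7 with 173 exonic bases in common on opposite strands. Mrpl46, specific to mitochondria, had 22.6 and 22.4 FPKM in induced and 41.1 and 36.9 FPKM in uninduced samples and fell (-0.76 ± 0.18, limma adjusted p = 0.0396). Mrps11, of the S11 family, had 38.1 and 39.7 FPKM in induced and 51.7 and 47.4 FPKM in uninduced samples and did not pass (-0.34 ± 0.18, limma adjusted p = 0.210). This pair was named after its values were seen.

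Promoter sequences are shown because 33 of the genes fell and none rose. RefSeq windows of 250 bases before to 50 bases after the start (GRCm38.p6) were matched by symbol for 64 of the 72, and were searched on both strands for 4 motifs. CCGGAAG, read by ETS factors such as GABPA, was in the windows of 23 of the 64 genes, 12 of 27 that fell and 11 of 37 that did not pass, and in those of 22.6% of the genes of tested protein-coding loci. CACGTG, the E-box read by MYC and related factors, was in 4 of the 64 (6.25%), under the 12.2% of the genes of tested loci. All 4 were among the 27 that fell, a share of 14.8% that is near that background. AAGATGGCG, a YY1 motif, was in 7 of the 64, 4 that fell and 3 that did not pass, and in 4.24% of the genes of tested loci. The NRF1 motif was in 3 of the 64, 1 that fell and 2 that did not pass, and in 2.66% of the genes of tested loci. Over all promoter windows of the table, whatever the gene, the shares were 8.86% for CCGGAAG, 7.15% for CACGTG, 1.40% for AAGATGGCG and 0.971% for the NRF1 motif. A match is a description of letters and not a binding site.

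The first 4 sequences are 120-base stretches with the E-boxes, from Mrpl36, Mrpl37, Mrpl2 and Mrpl20. The fifth is from Mrps27, with an ETS motif, and the last is from Mrps36, which holds none of the motifs and was not lower. Other genes go the other way. Windows of Mrpl12 and Mrps5, which fell, also hold none of the motifs, and that of Mrps21, which was not lower, holds an ETS motif. All printed sequences read 5′ to 3′ on the strand of the gene, and capitals mark the motifs.
Mrpl36, chr13:73330889-73331008, plus strand: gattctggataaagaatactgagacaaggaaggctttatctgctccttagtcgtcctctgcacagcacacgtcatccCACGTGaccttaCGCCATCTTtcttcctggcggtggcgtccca
Mrpl37, chr4:107066969-107067088, minus strand: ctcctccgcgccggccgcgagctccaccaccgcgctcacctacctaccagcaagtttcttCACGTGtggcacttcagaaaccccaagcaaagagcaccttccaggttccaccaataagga
Mrpl2, chr17:46646030-46646149, plus strand: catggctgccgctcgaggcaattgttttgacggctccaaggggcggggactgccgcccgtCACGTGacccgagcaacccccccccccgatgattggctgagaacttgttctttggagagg
Mrpl20, chr4:155802758-155802877, plus strand: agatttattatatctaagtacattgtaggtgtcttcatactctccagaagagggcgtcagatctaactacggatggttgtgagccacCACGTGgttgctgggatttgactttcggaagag
Mrps27, chr13:99344666-99344785, plus strand: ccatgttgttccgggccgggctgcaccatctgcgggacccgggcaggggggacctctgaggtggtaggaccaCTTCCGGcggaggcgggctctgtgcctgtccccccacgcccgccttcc
Mrps36, chr13:100744660-100744779, minus strand: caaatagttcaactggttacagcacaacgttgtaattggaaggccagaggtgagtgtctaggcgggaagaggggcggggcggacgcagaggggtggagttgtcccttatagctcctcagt

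In Mrpl36 the E-box begins 43 bases before the start and is followed by a YY1 motif on the other strand. In Mrpl20 it begins 33 bases before the start and in Mrpl37 162 bases before. The levels of Mrpl36 and Mrpl20 are given above. Mrpl37, specific to mitochondria, measured 16.3 and 16.4 FPKM in induced and 45.8 and 37.4 FPKM in uninduced samples and fell by 1.29 ± 0.20 on the log2 scale (limma adjusted p = 0.0178). Mrpl2, of the L2 family at the catalytic centre, measured 48.9 and 48.0 FPKM in induced and 90.2 and 105 FPKM in uninduced samples and fell by 0.99 ± 0.19 (limma adjusted p = 0.0244). Both were named after their values were seen.

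Other genes of mitochondrial translation were examined in 3 lists. Of 6 subunit genes with other symbols, 2 fell and none rose (median -0.48), where 14.7% of all loci were called lower and 11.5% higher. Gadd45gip1, a large-subunit protein, had 10.1 and 11.5 FPKM in induced and 25.2 and 25.1 FPKM in uninduced samples (-1.15 ± 0.19, limma adjusted p = 0.0196), and the peptide release protein Ict1, named after its values were seen, was the other that fell (-0.69 ± 0.18, limma adjusted p = 0.0482). Aurkaip1, the most abundant of them and a small-subunit protein, had 128 and 141 FPKM in induced and 133 and 150.4 FPKM in uninduced samples, with overlapping groups.

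Among 23 loci of mitochondrial ribosome assembly factors, 6 fell and 1 rose (median -0.38), beside the same 14.7% and 11.5% of all loci. Wbscr16, a factor of large-subunit assembly, had 5.56 and 3.16 FPKM in induced and 25.1 and 19.3 FPKM in uninduced samples (-2.14 ± 0.30, limma adjusted p = 0.0156). Rbfa, a factor of small-subunit maturation and the most abundant of the list, had 38.6 and 48.4 FPKM in induced and 63.4 and 65.7 FPKM in uninduced samples and did not pass (-0.57 ± 0.20, limma adjusted p = 0.0961). The locus that rose was a minor row with the symbol Eral1, at 2.40 and 1.83 FPKM in induced and 0.15 and 0.06 FPKM in uninduced samples. The main Eral1 row lay between 17.8 and 21.3 FPKM in the 4 samples and did not pass.

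Of 13 genes for mitochondrial translation factors, 4 fell and none rose (median -0.40), again beside 14.7% and 11.5% of all loci. Tufm, the elongation factor that brings tRNAs to the ribosome, was the most abundant of them, and averaged 50.05 FPKM in induced and 139 FPKM in uninduced samples, with nearly equal replicates (-1.46 ± 0.18, limma adjusted p = 0.0130). Tsfm, which recharges Tufm, had 19.5 and 14.8 FPKM in induced and 59.6 and 53.3 FPKM in uninduced samples (-1.67 ± 0.22, limma adjusted p = 0.0144). The remaining 2 that fell were Gfm1, the translocation factor, and Mrrf, the recycling factor, both named after their values were seen. The other 9 did not pass, from Mtrf1 at -0.54 to Mtif3 at 0.30, both likewise named after their values were seen.

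Of transcripts of mitochondrial DNA, only rows that passed a high FPKM cut in any sample were taken. There were 5 such rows, 4 of them shared by several genes, and none was called. Rows under the cut were not examined. The main row, from mt-Co1 to mt-Nd5, measured 2483 and 2428 FPKM in induced and 2378 and 1173 FPKM in uninduced samples. Induced and uninduced replicate 1 were close and uninduced replicate 2 stood apart, so no difference was resolved (0.56 ± 0.42, limma adjusted p = 0.354). The other 4 rows taken had log2 fold changes below 0. The row of mt-Nd6 measured 93.1 and 120 FPKM in induced and 265 and 143 FPKM in uninduced samples, without overlap (-0.88 ± 0.35, limma adjusted p = 0.120). The mt-Tp row measured 78.6 and 117 FPKM in induced and 138 and 121 FPKM in uninduced samples, also without overlap (-0.42 ± 0.26, limma adjusted p = 0.269). Groups overlapped in the row with both ribosomal RNAs (-0.07 ± 0.34) and in the mt-Cytb row (-0.0058 ± 0.29). The row with the ribosomal RNAs also holds mt-Nd1, mt-Nd2 and tRNAs. Because the libraries were depleted of ribosomal RNA, that row cannot show whether the ribosomal RNAs changed.

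Cytosolic ribosomal proteins gave other counts. Limma called 0 of 59 tested loci, beside 14.7% of all loci lower and 11.5% higher, and the median log2 fold change of the 59 was 0.13. Their SEs were mostly larger than those of the 72 genes, so a change of equal size was less likely to pass. At an unadjusted limma p under 0.05, 1 was lower and 0 higher. The 1 was a minor row of Rps10, averaging 0.645 FPKM in induced and 3.72 FPKM in uninduced samples, while the main Rps10 row stood at 0.14 ± 0.30. The most abundant, Rplp1, a stalk protein of the cytosolic ribosome, had 8526 and 10250.4 FPKM in induced and 11566 and 14380 FPKM in uninduced samples, without overlap and short of the threshold (-0.46 ± 0.42, limma adjusted p = 0.434). Many of these genes have near-identical copies, so single values are uncertain.

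**Figure D4:**
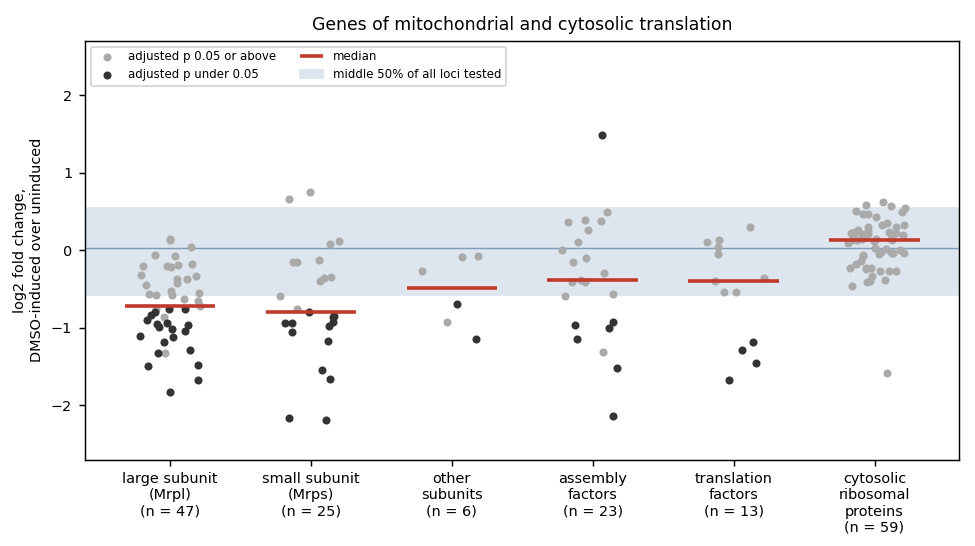
Log2 fold change of each tested gene of 6 lists; dark points passed an adjusted p of 0.05, red lines are medians and the shaded band is the middle 50% of all loci tested. Large- and small-subunit medians (-0.72 and -0.80) lie below the band, those of other subunits, assembly factors and translation factors within it, and that of cytosolic ribosomal proteins above 0.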

How the data were processed

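RNA from 4 samples, 2 per group, was depleted of ribosomal RNA with Ribo-Zero before library preparation, per the labels' protocols. The authors deposited 1 table with 1 value column per sample and no unit in its header. The deposited values were read as FPKM, since the layout is that of Cufflinks output, per the file headers, and the column sums are too high for CPM or TPM. TopHat2 and GRCm38 are named in the submitters' processing notes. The quantifier, annotation release and strandedness are not given in the sources used here. FPKM keeps no counts, so no count model was used.

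A locus was tested if 2 or more samples reached 1 FPKM, with limma 3.58.1 in R 4.3.3 on log2(FPKM + 1), with trend and group as the only term. Fold changes on this scale understate changes of low genes, and SEs are limma's moderated ones. Members and lists were chosen with earlier results of these data known, so lists are described by counts and medians without a set test. Named genes were, for each subunit, up to 5 fallen and 5 risen with the largest change, the most and least abundant, the 2 with the smallest change, a set chosen by role, and the most abundant and most changed gene of each other list. Near-identical copies were transcripts with at least 95% identity over at least 50% of the coding sequence. Positions are from GENCODE M21. Scaling, filters, the pseudocount, a replicate block, leaving out samples and membership were varied.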

Additional observations from a re-analysis of the deposited data

How the results depend on the processing

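Members' log2 fold changes stayed mostly below 0 in every setting run (60 to 68 of 72), but the number of calls depended on the fit. Against 33 called lower, 18 were called when globins and the top 10 loci were left out of the scaling sums, 0 without a filter (30 of all loci), 19 among genes with no overlap or near copy (fewer genes counted), and 0 to 3 with 1 sample left out (14 to 486 of all loci, fewer samples). Against 0 called higher, quantile scaling gave 2 and protein-coding loci only gave 1. Quantile scaling moved the subunit medians to -0.55 (large) and -0.68 (small), and leaving out a sample gave -0.86 to -0.66 for the small subunit. The difference of medians, 0.08, was -0.008 with Mrps18a and Mrps30 counted as large, -0.045 among genes with no overlap or near copy, and -0.028 to 0.16 with 1 sample left out. With the replicate block 37 members were called lower, Mrpl47 among them (limma adjusted p = 0.0178), beside 17.8% of loci lower and 15.0% higher. Same-numbered samples deviated together only weakly (r = 0.17 over loci), and with 2 pairs the numbers were not taken as pairing. The median of all loci ran from -0.04 to 0.11 over the scalings. Genes with small differences changed sign. Mrpl30 was at 0.19 (quantile) and 0.0397 (sums without globins and the top 10), Aurkaip1 at 0.23 and 0.0233, Mrpl49 at -0.0305 and Mrps25 at -0.0017 (median-of-ratios). With 1 sample left out, Mrpl30 ran from -0.19 to 0.0798, Mrpl49 from -0.11 to 0.20, Mrps25 from -0.0507 to 0.20 and Aurkaip1 from -0.16 to 0.016. The cause was not tested. The protein-coding and no-overlap settings were chosen after seeing the data.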
